A study of Mus musculus with 7 samples.

Results

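Matrix metalloproteinases (MMPs), the ADAM and ADAMTS proteases, the ADAMTS-like proteins and the tissue inhibitors of metalloproteinases (TIMPs) were described in the soleus muscle of dystrophic mice. The genes were chosen by symbol alone: Mmp, Adam, Adamts or Adamtsl followed by a number, and Timp1 to Timp4. 83 of the 29869 gene symbols in the table met this rule, namely 23 Mmp, 32 Adam, 19 Adamts, 5 Adamtsl and 4 Timp genes. The libraries were total RNA from whole soleus of mice aged 60 days, and by their titles 4 came from mdx and 3 from mdx/Runx1f/f animals. mdx is the mutation that leaves muscle without dystrophin and serves as a mouse model of Duchenne muscular dystrophy, and all animals carried it. Runx1f/f denotes a floxed allele of the transcription factor gene Runx1. No Cre driver is named in the labels, nor which exons of Runx1 are floxed, and there were no libraries from muscle with dystrophin among the samples. Each title carries its own animal number, and nothing further is said of how the animals were related, so the tests measure the spread between these libraries.

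The labels and the design text disagree on the groups. The design text counts 3 mdx and 4 mdx/Runx1f/f animals, the reverse of the titles, and some animal numbers differ between titles and descriptions. Runx1 itself was higher under the label mdx/Runx1f/f. Its normalised read count is the read count divided by the authors' size factor for the library. It was 274, 273, 235 and 201 under the label mdx and 919, 925 and 596 under the label mdx/Runx1f/f. The difference came to 1.74 on the log2 scale (SE 0.18, adjusted p = 0.00795, edgeR). The groups are therefore called by their labels throughout, and every direction below is that of the libraries labelled mdx/Runx1f/f against those labelled mdx. Whether the labels were exchanged, the floxed part of Runx1 lies outside what the counts see, or the difference has another source was not tested. An exchange would turn every direction. Total counts ranged from 16218306 to 20847902 per library. The 83 genes together took 0.0989 to 0.141% of all counts in the mdx libraries and 0.198 to 0.227% in the mdx/Runx1f/f libraries.

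MMPs are zinc-dependent proteases, secreted or anchored in the membrane, that cut collagens, fibronectin and other matrix proteins and also activate one another. ADAMs are membrane proteins, many of which release the outer part of growth factors, cytokine receptors and adhesion molecules from the cell surface. ADAMTS proteases are secreted and cut proteoglycans, process procollagens or trim other matrix proteins, the ADAMTS-like proteins lack the protease domain, and TIMPs are small secreted proteins that block the active site of these enzymes. In dystrophic muscle they are known from studies of fibre regeneration, inflammation and fibrosis.

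Of the 83 genes, 49 had enough reads to be tested. 10 of the 49 were higher in the mdx/Runx1f/f libraries at an adjusted p under 0.05 in edgeR's quasi-likelihood test, against 5.10% of all 14033 tested genes, and none was lower, against 1.85%. The 10 were Timp2, Mmp2, Mmp3, Mmp19, Mmp23, Adam33, Adamts2, Adamts5, Adamts12 and Adamtsl1, with log2 fold changes from 0.83 to 2.38. At an unadjusted p under 0.05, 24 of the 49 were higher and 0 lower (17.1% and 12.4% of all tested genes), and neither DESeq2 nor limma-voom called any of them lower. The fold change was above 1 for 40 of the 49, or 81.6%, against 49.8% of all tested genes. Its median was 0.56 on the log2 scale, against -0.0016 over all tested genes. In 17 genes every mdx/Runx1f/f library was above every mdx library, and in 1, Adam1a, below (13.9% and 13.6% of all tested genes). The authors' deposited table, which was made with DESeq2, calls 20 of the 52 genes of these families for which it gives an adjusted p higher and 0 lower (11.2% and 7.85% of the genes with one). By family, 4 of 13 tested Mmp genes, 3 of 15 Adamts, 1 of 12 Adam, 1 of 5 Adamtsl and 1 of 4 Timp genes were called, with median log2 fold changes of 1.30, 0.59, 0.47, 0.18 and 0.39.

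**Figure D1:**
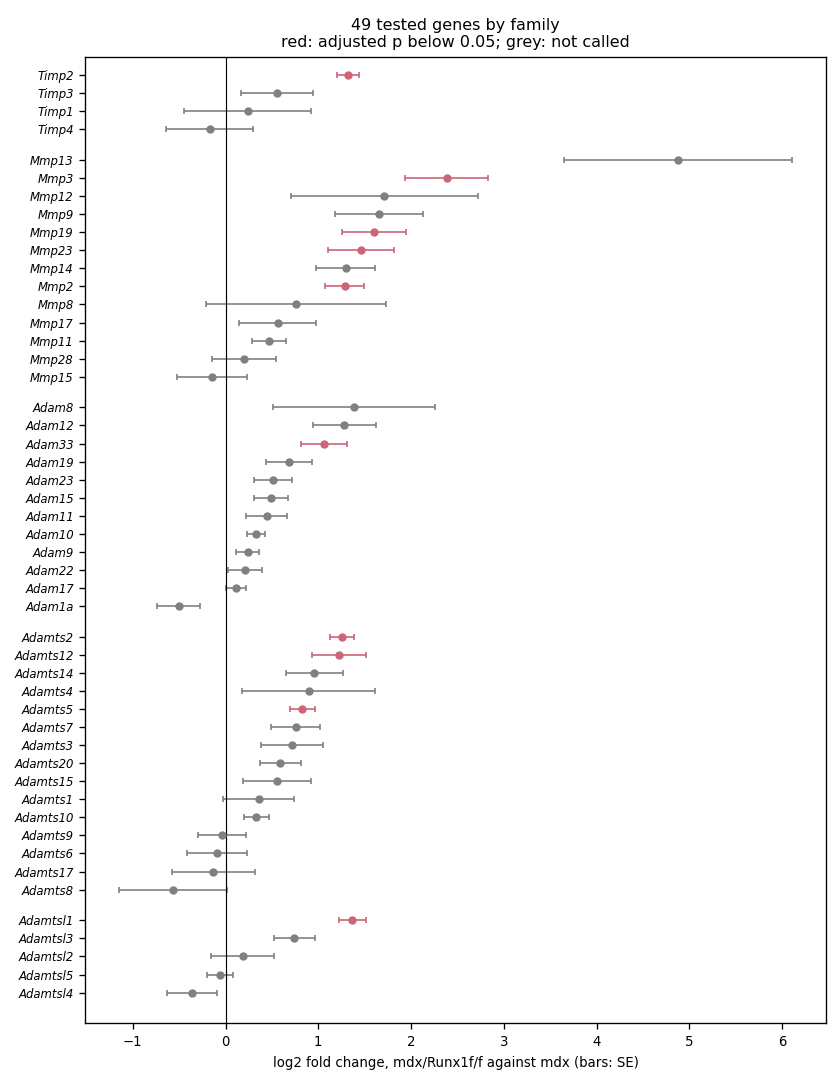
log2 fold change, mdx/Runx1f/f over mdx, of the 49 tested genes by family, with bars for the SE and red points for the 10 genes called at an adjusted p under 0.05. The Mmp genes have the highest median, 1.30, but 4 of the 13 passed the filter only with the help of the mdx/Runx1f/f libraries. The called genes lie between 0.83 and 2.38.

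The other 34 genes did not pass the filter on low counts. 17 of them had no read in any library: Adam6a, Adam6b, Adam7, Adam18, Adam24, Adam25, Adam26a, Adam26b, Adam28, Adam29, Adam34, Adam39, Mmp1a, Mmp1b, Mmp7, Mmp16 and Mmp20. The remaining 17 had at most 53 reads in a library, the highest being Mmp27. 4 tested genes, Mmp8, Mmp9, Mmp12 and Mmp13, passed the filter only with the help of the mdx/Runx1f/f libraries and not on the mdx libraries alone. None of these 4 was called, and the median log2 fold change of the other 45 tested genes was 0.55. All 4 are Mmp genes, with log2 fold changes from 0.76 to 4.88. The Mmp median and the counts over all tested members include them.

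Timp2, whose protein inhibits MMPs and also takes part in the activation of proMMP2 at the cell surface, was the inhibitor that changed. It had 2898, 2848, 2194 and 2641 normalised reads in the mdx libraries and 6694, 6261 and 6770.2 in the mdx/Runx1f/f libraries. The groups were far apart and the spread within each was narrow. The means were 2645 ± 321 (SD, n = 4) and 6575 ± 275 (SD, n = 3), and the fold change in the fit was 2.50, or 1.32 on the log2 scale (SE 0.12, adjusted p = 0.00795, edgeR). Timp1, an inhibitor that is induced in injured and inflamed tissue, had 639, 737, 118 and 113 in mdx and 349.6, 696 and 368 in mdx/Runx1f/f. The mdx libraries thus fell into a high and a low pair, with 1 value of the other group inside the high pair and the other 2 between the pairs, and the log2 fold change of 0.24 (SE 0.68) did not pass the test (adjusted p = 0.846, edgeR). The high pair came from animals 358 and 361 and the low pair from animals 373 and 375, a split by animal number that is met again below.

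Timp3, the TIMP that binds to the matrix and also inhibits ADAM17 and the aggrecanases, had 2632, 2154, 745 and 1305 in mdx and 2687, 2911 and 1885 in mdx/Runx1f/f. Its change of 0.55 on the log2 scale did not pass the test (SE 0.39, adjusted p = 0.371, edgeR), with overlapping groups. Timp4, an inhibitor of restricted expression that is known from heart and muscle, had 563, 614, 192 and 465 in mdx and 564, 475 and 175 in mdx/Runx1f/f, a log2 fold change of -0.17 (SE 0.47, adjusted p = 0.838, edgeR). The lowest Timp4 values of both groups came from animals 373 and 374.

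The TIMP genes other than Timp2 lie within the synapsin genes on the opposite strand, Timp1 within Syn1, Timp3 within Syn3 and Timp4 within Syn2, in the GENCODE M21 annotation. Timp4 shares 90 exon bases with Syn2, and without a stated strand setting their reads cannot be told apart there. Syn2 had 155, 211, 204 and 272 normalised reads in mdx and 63.7, 64.5 and 58.6 in mdx/Runx1f/f. It was lower, with a log2 fold change of -1.75 (SE 0.20, adjusted p = 0.00853, edgeR), beside a Timp4 value of -0.17. Syn3 was at -0.16 (adjusted p = 0.787, edgeR) beside 0.55 for Timp3, and Syn1 had too few reads to be tested. Whether host and nested gene differ in their change was not tested.

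To compare levels between genes, counts scaled to library size (CPM) were divided by the exon length in kb. On this scale Timp2 averaged 40.4 ± 4.97 in mdx (SD, n = 4) and 101 ± 5.02 in mdx/Runx1f/f (SD, n = 3), Timp1 25.6 ± 21.2 and 30.1 ± 12.2, Timp3 20.5 ± 10.1 and 30.1 ± 6.44, and Timp4 4.41 ± 1.81 and 3.91 ± 1.98. Timp4 was thus the lowest of the family in both groups. Timp2 made up 36.3, 35.6, 64.6 and 59.6% of the summed Timp level in the mdx libraries and 63.0, 53.3 and 68.4% in the mdx/Runx1f/f libraries. The mdx share was low in animals 358 and 361, where Timp1 was high. The summed Timp level was 90.9 ± 36.6 in mdx and 165 ± 13.4 in mdx/Runx1f/f, and the summed Mmp level 76.2 ± 8.89 and 179 ± 51.9. Mmp2 alone made up 61.9 to 70.4% of the Mmp sum in the 7 libraries. The ratio of the Mmp2 to the Timp2 level was 1.23 ± 0.0847 in mdx and 1.19 ± 0.325 in mdx/Runx1f/f, so the means of this ratio differed by less than the spread within the mdx/Runx1f/f group.

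**Figure D2:**
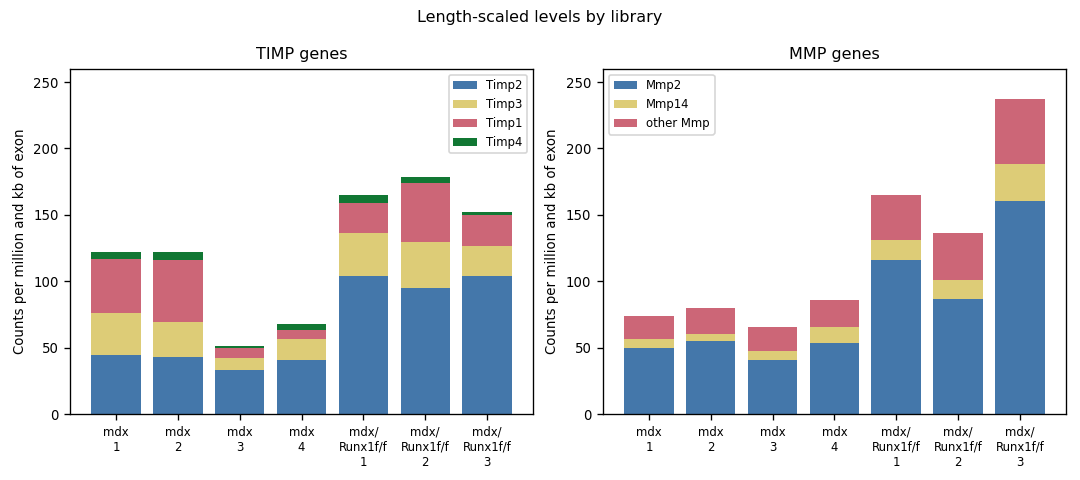
Stacked bars of CPM per kb of exon in each library, for the TIMP genes on the left and for Mmp2, Mmp14 and the sum of the other Mmp genes on the right. The Timp sum runs from 51.6 to 122.3 in mdx and from 151.8 to 178.6 in mdx/Runx1f/f, and Mmp2 is the largest part of every Mmp bar.

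Mmp2, the gelatinase that cuts denatured collagen and type IV collagen and is made by fibroblasts, was higher in the mdx/Runx1f/f libraries. It had 2712, 2986, 2207 and 2911 normalised reads in mdx against 6204, 4737 and 8698. No value of one group reached the other, and the mdx/Runx1f/f libraries spread more widely. The fold change was 2.43, or 1.28 on the log2 scale (SE 0.21, adjusted p = 0.0183, edgeR). Mmp9, the gelatinase of neutrophils and macrophages, was sparse, with 10.6, 23.0, 7.73 and 9.87 normalised reads in mdx and 18.6, 49.3 and 53.1 in mdx/Runx1f/f. The groups overlapped through mdx replicate 2, and the log2 fold change of 1.65 (SE 0.47) missed the threshold (adjusted p = 0.0696, edgeR).

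The largest change among the called genes was that of Mmp3, stromelysin-1, which cuts many matrix proteins and activates other proMMPs. It had 23.2, 73.1, 28.7 and 17.8 normalised reads in mdx and 168, 149 and 241 in mdx/Runx1f/f. All 3 mdx/Runx1f/f values were above the highest mdx value, and the fold change was 5.22, or 2.38 on the log2 scale (SE 0.45, adjusted p = 0.0268, edgeR). Mmp3 lies in a row of 10 Mmp genes on chromosome 9, in the order Mmp13, Mmp12, Mmp1b, Mmp3, Mmp1a, Mmp10, Mmp8, Mmp27, Mmp20 and Mmp7. Most of this row was silent or nearly so in the soleus: only Mmp13, Mmp12, Mmp3 and Mmp8 had enough reads to be tested. Of these, edgeR with group only called Mmp3 alone. Among the alternative fits below, DESeq2 also called Mmp27, and edgeR without the filter on low counts also called Mmp13.

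Mmp13, the main interstitial collagenase of rodents, had 8.45, 0.00, 9.94 and 12.8 normalised reads in mdx and 36.2, 40.2 and 627 in mdx/Runx1f/f. The groups did not overlap, but mdx/Runx1f/f replicate 3 stood far above the other 2 libraries of its group. Its log2 fold change came to 4.88 (SE 1.23, adjusted p = 0.0536, edgeR), and to 2.27 (adjusted p = 0.0868, edgeR) without that library. Without mdx/Runx1f/f replicate 1 the adjusted p was 0.0455. Mmp12, the macrophage metalloelastase, had 96.1, 17.8, 2.21 and 5.92 in mdx and 132, 139.6 and 26.0 in mdx/Runx1f/f. Its highest mdx value lay among those of the other group, and the log2 fold change of 1.71 (SE 1.01) did not pass the test (adjusted p = 0.291, edgeR). Without mdx replicate 1 it was 3.51, still without passing (adjusted p = 0.0515, edgeR).

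Promoters are shown for 4 Mmp genes whose windows hold the letters of the RUNX binding motif or of the AP-1 motif. AP-1 is the site of the Fos and Jun factors, by which MMP genes are known to be induced. The 4 are the called genes Mmp3 and Mmp23, and Mmp13 and Mmp14, which were not called. Mmp1a, Mmp1b, Mmp7, Mmp10, Mmp12 and Mmp27, untested or not called, also hold a match and are not shown. The sequences are RefSeq's, on GRCm38.p6, each covering 200 bases up to the base before the annotated start, 5′ to 3′ on the gene's strand, with the motif in capitals. They lie at chr9:7272314-7272513 on the plus strand for Mmp13, chr9:7445622-7445821 on the plus strand for Mmp3, chr14:54431398-54431597 on the plus strand for Mmp14 and chr4:155653385-155653584 on the minus strand for Mmp23.
Mmp13: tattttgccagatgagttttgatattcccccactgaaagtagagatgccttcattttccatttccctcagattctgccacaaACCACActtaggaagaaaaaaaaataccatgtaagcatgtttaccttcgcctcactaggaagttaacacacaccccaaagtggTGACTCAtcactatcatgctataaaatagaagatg
Mmp3: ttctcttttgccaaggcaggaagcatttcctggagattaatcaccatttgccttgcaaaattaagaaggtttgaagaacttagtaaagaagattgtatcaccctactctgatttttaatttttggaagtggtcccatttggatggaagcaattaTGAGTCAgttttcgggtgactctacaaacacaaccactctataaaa
Mmp14: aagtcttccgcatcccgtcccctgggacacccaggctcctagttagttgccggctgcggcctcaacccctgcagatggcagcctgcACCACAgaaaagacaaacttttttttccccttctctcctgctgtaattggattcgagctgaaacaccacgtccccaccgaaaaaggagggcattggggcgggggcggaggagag
Mmp23: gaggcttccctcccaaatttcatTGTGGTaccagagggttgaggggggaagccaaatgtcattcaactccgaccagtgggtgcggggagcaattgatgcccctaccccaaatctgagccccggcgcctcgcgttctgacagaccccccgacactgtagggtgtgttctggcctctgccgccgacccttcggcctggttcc
The RUNX motif searched was TGTGGT on either strand, and the AP-1 motif TGACTCA on either strand, and no match of one overlapped a match of the other. In Mmp13 the RUNX match begins 118 bases before the start and the AP-1 match 35 bases before it. The AP-1 match of Mmp3 begins 46 bases before the start, and the RUNX matches of Mmp14 and Mmp23 begin 114 and 177 bases before it.

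The promoter table, whose windows run from 250 bases before to 50 bases after a start, matched 52 of the 83 genes by symbol, with 57 windows. TGTGGT was found in 12 of the 57, or 21.1%, against 16.8% of all 32851 windows. TGACTCA was found in 10 of the 57, or 17.5%, against 5.20% of all windows, and 7 of these 10 windows belong to the row on chromosome 9, all of whose 10 genes were matched. Of the called genes, Timp2, Mmp3, Mmp23, Adamts2 and Adamts12 were matched, and TGTGGT was found in Mmp23 and TGACTCA in Mmp3. A match is a description of the letters in the window and does not show that a factor is bound there.

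Mmp14, the membrane-type MMP that activates proMMP2 with Timp2 as a bridge and cuts fibrillar collagen, had 459.6, 400.0, 534 and 869.7 normalised reads in mdx and 1086, 1076 and 2003 in mdx/Runx1f/f. Every mdx/Runx1f/f value was above every mdx value, but mdx replicate 4 came close. The log2 fold change of 1.30 (SE 0.32) fell just outside the threshold (adjusted p = 0.0504, edgeR), and the adjusted p was 0.00202 in DESeq2 and 0.0464 in limma-voom. Without mdx replicate 4 Mmp14 was called, at an adjusted p of 0.0415 (edgeR). Of the other membrane-type genes Mmp15 was at -0.15 and Mmp17 was also not called, and Mmp16, Mmp24 and Mmp25 were not tested.

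Mmp19, a widely expressed MMP that cuts basement membrane and matrix proteins, had 155, 143, 60.7 and 73.1 in mdx and 293, 421 and 265 in mdx/Runx1f/f. It was 3.03-fold higher (SE 0.34 on the log2 scale, adjusted p = 0.0350, edgeR). Its exons share 789 bases with Tmem198b on the opposite strand in GENCODE M21. How reads in these shared bases were counted is not stated, so its value could be affected there. Mmp23, a small membrane MMP without the usual hemopexin domain, had 50.7, 95.0, 32.0 and 48.4 in mdx and 115, 203 and 146 in mdx/Runx1f/f, a log2 fold change of 1.46 (SE 0.35, adjusted p = 0.0491, edgeR). In both genes the groups did not overlap, and in both the highest mdx values came from animals 358 and 361.

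**Figure D3:**
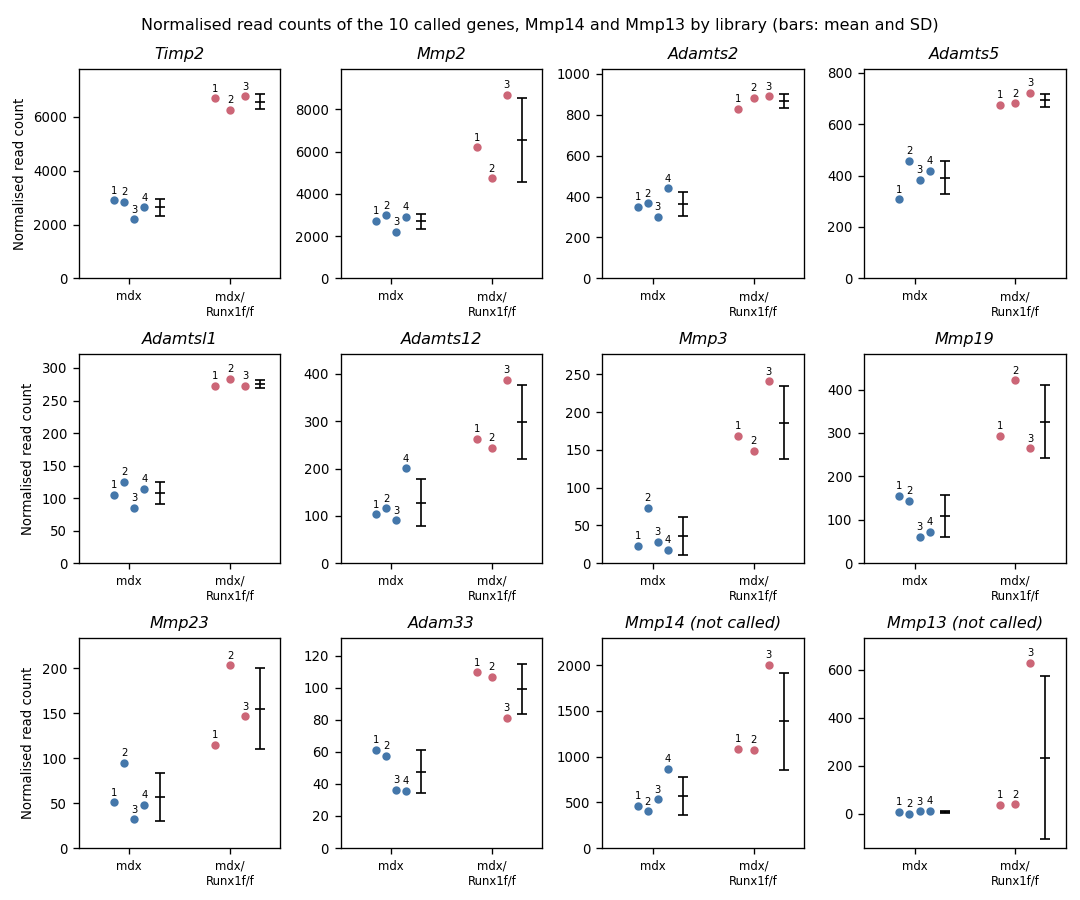
Normalised read counts of the 10 called genes and of Mmp14 and Mmp13, with a numbered point for each of the 4 mdx and 3 mdx/Runx1f/f libraries and the mean with SD beside them. In all 12 genes every mdx/Runx1f/f library lies above every mdx library, and for Mmp13 the third of them stands at 627.

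Among the ADAM genes only Adam33, a membrane protease of mesenchymal cells, was called. It had 61.3, 57.4, 36.4 and 35.5 normalised reads in mdx and 109.7, 107 and 81.3 in mdx/Runx1f/f, a log2 fold change of 1.07 (SE 0.25, adjusted p = 0.0442, edgeR). Adam12, known from regenerating muscle and from mesenchymal cells, had 91.9, 132, 62.9 and 76.0 against 166, 341 and 149.7. Its groups did not overlap, but the log2 fold change of 1.28 (SE 0.34) did not pass (adjusted p = 0.0606, edgeR), although it did in DESeq2 (adjusted p = 0.00811). Adam8, a protease of myeloid cells, had 375, 96.1, 32.0 and 34.6 in mdx and 287, 633 and 130.1 in mdx/Runx1f/f. mdx replicate 1 was the mdx library with the most Adam8, as it was for Mmp12. The log2 fold change of Adam8 was 1.39 (SE 0.87, adjusted p = 0.319, edgeR) with that library and 2.69 (adjusted p = 0.0570, edgeR) without it.

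The broadly expressed sheddases Adam10 and Adam17 moved little. Adam10, which releases Notch, cadherins and the amyloid precursor from the cell surface, had 913, 976, 858 and 1028 in mdx and 1148, 1274 and 1122 in mdx/Runx1f/f. These groups did not overlap, yet the change of 0.33 on the log2 scale missed the threshold (SE 0.09, adjusted p = 0.0693, edgeR), and DESeq2 gave an adjusted p of 0.0347. Adam17, the sheddase of tumour necrosis factor and of epidermal growth factor receptor ligands, had 922, 909.6, 938 and 1014 against 863, 1034 and 1151, a log2 fold change of 0.11 (SE 0.11, adjusted p = 0.536, edgeR). Its exons share 311 bases with Iah1 on the opposite strand. Adam19, a relative of Adam12, had 339, 464, 533 and 716 against 645, 827 and 990.1, with overlapping groups and a log2 fold change of 0.68 (SE 0.25, adjusted p = 0.115, edgeR). The 3 tested ADAM genes without a working catalytic motif, Adam11, Adam22 and Adam23, were not called, and of the 20 remaining Adam genes, many of them known from testis, only Adam1a had enough reads to be tested. Adam1a had 33.8, 40.7, 45.3 and 35.5 in mdx and 33.3, 27.3 and 20.6 in mdx/Runx1f/f, a log2 fold change of -0.51 (SE 0.24, adjusted p = 0.193, edgeR), and it shares 1805 exon bases with Mapkapk5.

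Adamts2, which removes the N-propeptide of fibrillar procollagens, was among the changes with the least spread. It had 349, 367, 299 and 439 normalised reads in mdx and 829, 884 and 889 in mdx/Runx1f/f, means of 363 ± 58.0 (SD, n = 4) and 867 ± 33.6 (SD, n = 3). This was a fold change of 2.40, or 1.26 on the log2 scale (SE 0.13, adjusted p = 0.00795, edgeR). The other 2 procollagen N-proteinases, Adamts3 and Adamts14, were not called. Adamts14 had 145, 143, 140.2 and 123 against 415, 232 and 151, without overlap and with mdx/Runx1f/f replicate 1 highest, a log2 fold change of 0.96 (SE 0.30, adjusted p = 0.0875, edgeR).

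Of the 7 proteoglycanases, the ADAMTS proteases that cut aggrecan and versican, 1 was called. Adamts5 had 307, 456, 383 and 419 in mdx and 675, 681 and 720.1 in mdx/Runx1f/f, a log2 fold change of 0.83 (SE 0.13, adjusted p = 0.0181, edgeR). The mdx/Runx1f/f libraries were close together and all above the mdx libraries. Adamts1 had 660.3, 1184, 657 and 1479 against 702, 1270.4 and 1840.3 (0.36 on the log2 scale, SE 0.39, adjusted p = 0.570, edgeR). Adamts4 had 20.1, 25.1, 59.6 and 136 against 46.0, 83.4 and 209 (log2 fold change 0.90, SE 0.72, adjusted p = 0.434, edgeR). Adamts15 had 109, 154, 205 and 209 against 132, 218 and 395 (log2 fold change 0.55, SE 0.37, adjusted p = 0.345, edgeR). In all 3 the groups overlapped and the highest library was mdx/Runx1f/f replicate 3. Adamts8 had 331, 103, 423 and 145 in mdx and 70.5, 285 and 147 in mdx/Runx1f/f, the largest negative value of the 49 genes, with a log2 fold change of -0.56 (SE 0.58, adjusted p = 0.550, edgeR).

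Adamts12, which cuts the cartilage oligomeric matrix protein, had 104, 116, 90.5 and 200.4 in mdx and 262, 243 and 387 in mdx/Runx1f/f. It was higher, with a log2 fold change of 1.22 (SE 0.29, adjusted p = 0.0481, edgeR). Adamtsl1, an ADAMTS-like matrix protein, had 105, 125, 85.0 and 115 against 272, 283 and 272. The 3 mdx/Runx1f/f values were nearly equal, and the fold change was 2.58, or 1.37 on the log2 scale (SE 0.14, adjusted p = 0.00795, edgeR). Adamtsl3 had 130.0, 172, 83.9 and 136 against 199.8, 212 and 241, without overlap (log2 fold change 0.74, SE 0.22, adjusted p = 0.0776, edgeR; adjusted p = 0.0275, DESeq2). Adamtsl2, which binds fibrillin and a latent TGF-beta binding protein, had 87.7, 116, 64.0 and 101 against 130.2, 129 and 52.1 (log2 fold change 0.18, SE 0.34, adjusted p = 0.752, edgeR). Adamtsl4 and Adamtsl5, the most abundant of these 5 genes in reads, were at -0.36 and -0.06 and were not called.

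The 10 calls rested to different degrees on single libraries. Timp2, Adamts2 and Adamtsl1 kept their call whichever of the 7 libraries was left out, as did 125 or 0.891% of all tested genes. Mmp2 was called in 6 of the 7, Adamts5 in 5, Mmp3 in 3, and Mmp19, Mmp23, Adam33 and Adamts12 in 1. Without mdx replicate 3 the count fell from 10 to 3 (1.57% of all genes tested), without mdx/Runx1f/f replicate 2 to 4 (1.22%) and without mdx/Runx1f/f replicate 3 to 6 (3.20%). The animal numbers fall into a series from 358 to 363 and one from 373 to 375, and what else the series shared is not stated. The second series holds a single mdx/Runx1f/f library, replicate 3. In all 10 called genes the groups did not overlap. They were therefore bound to be higher in mdx/Runx1f/f than the mdx mean within each series. In animals 358 to 363 the log2 differences between the groups were smallest for Adamts5 at 0.83 and largest for Mmp3 at 1.70, and in animals 373 to 375 they were 0.84 and 3.32 for the same genes. Timp1 had a difference of -0.40 in the first series and 1.66 in the second.

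The count also moved with the tool. DESeq2 called 18 of 50 members higher, where 10% of all genes tested were higher and 5.95% lower. The 8 it added were Mmp9, Mmp14, Mmp27, Adam10, Adam12, Adamts14, Adamts19 and Adamtsl3. limma-voom called 11 (5.24% higher and 2.05% lower over all genes), the addition being Mmp14. edgeR called 10 with RLE size factors (5.04% and 1.88%), with Mmp14 in place of Mmp23, and 12 of 66 without the filter on low counts (3.43% and 1.22%), with Mmp13 and Mmp14 added. With the animal series as a covariate it called 15 (8.88% and 4.15%), all 10 and in addition Mmp13, Mmp14, Adam12, Adam19 and Adamts4. Within animals 373 to 375 alone, 2 mdx libraries against a single mdx/Runx1f/f library that is assumed to vary like the others, it called 22 of 51 (9.53% and 3.08%). Within animals 358 to 363 it called none of 50 (0.00% and 0.00%), with 20 members higher and 1 lower at an unadjusted p under 0.05 (11.8% and 7.20% of all genes tested). No member was called lower in any of these fits.

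**Figure D4:**
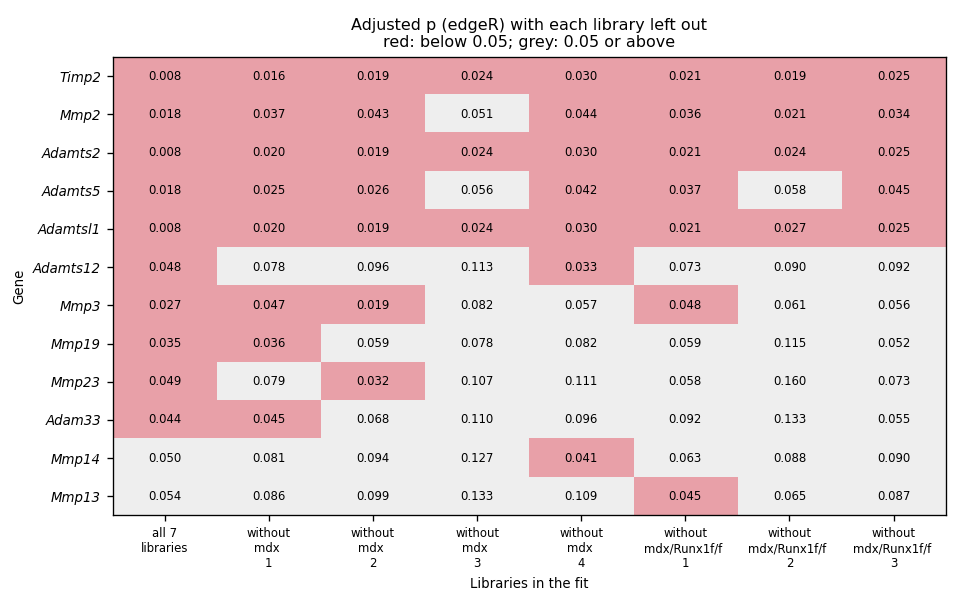
Adjusted p (edgeR) of the 10 called genes, Mmp14 and Mmp13 in rows, with all 7 libraries and with each library left out in columns, red where it is under 0.05. Timp2, Adamts2 and Adamtsl1 are red in every column, and in the column without mdx replicate 3 they are the only red cells.

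Other genes that act with these proteases were followed in lists, whose members were read against the same 5.10% of all tested genes called higher and 1.85% lower. Of 22 tested matrix proteins that these enzymes cut, 14 were higher and none lower, with a median log2 fold change of 1.28. Among them were Col5a1, a chain of type V collagen (1.40, SE 0.16, adjusted p = 0.00842, edgeR), Lum, the proteoglycan lumican (1.28, SE 0.16, adjusted p = 0.0105, edgeR), and Ltbp1, a latent TGF-beta binding protein (0.82, SE 0.10, adjusted p = 0.0107, edgeR). Of 13 tested inhibitors and regulators of MMPs 5 were higher. They were the procollagen C-proteinase enhancers Pcolce2 (1.26) and Pcolce (1.13), the proprotein convertase Pcsk5 (1.33), and Lrp1 (1.24) and Thbs2 (0.94), a receptor that takes up MMPs and a matricellular protein that binds MMP2. The membrane-bound MMP inhibitor Reck was at 0.84 (SE 0.22, adjusted p = 0.0575, edgeR). Of 8 tested genes in the plasminogen list 2 were higher, the urokinase gene Plau (0.87, SE 0.18, adjusted p = 0.0319, edgeR) and Serpinh1 (0.79, SE 0.16, adjusted p = 0.0331, edgeR). Serpinh1 encodes a collagen chaperone of the serpin family that does not act on plasminogen, so Plau was the 1 called gene of plasminogen activation proper. Of 8 tested astacin, cathepsin and other matrix proteases 4 were higher, with Fap, a fibroblast serine protease (0.92), Ctsk, cathepsin K (1.42), and Htra1 (0.99) as those with the smallest p.

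Of 21 tested membrane proteins that ADAMs release, 8 were higher, with a median log2 fold change of 0.79. They include the chemokine Cxcl16 (1.66, SE 0.18, adjusted p = 0.00842, edgeR), the receptor kinase Axl (1.08, SE 0.18, adjusted p = 0.0205, edgeR) and the proteoglycan Sdc1 (1.04, SE 0.18, adjusted p = 0.0227, edgeR). Partners of ADAM10 and ADAM17, among them tetraspanins and iRhoms that carry these to the surface and Frmd8, stood at a median of 0.23. edgeR called none of the 9 tested. At an unadjusted p under 0.05, 4 of these were higher and 1, Rhbdf2 at -0.41 (SE 0.13, adjusted p = 0.0922), was lower, and DESeq2 and limma-voom each called 1 higher. Leaving out a library also lowered the share of all tested genes called higher. It was 1.22% without mdx/Runx1f/f replicate 2, 1.57% without mdx replicate 3 and 3.20% without mdx/Runx1f/f replicate 3. For the other such fits this share is not given here. Leaving out mdx/Runx1f/f replicate 2 left 5 of the 22 matrix proteins and 1 of the 21 released proteins called. For the matrix proteins it was 8 or 9 without any of mdx replicates 2 to 4 or mdx/Runx1f/f replicate 3. For the released proteins it was 2 without mdx replicate 3 or 4, 4 without mdx replicate 2 and 5 without mdx/Runx1f/f replicate 1 or 3. The MMP regulators fell to 3 of 13 when mdx replicate 2 or 4 was left out, and to 2 when it was mdx replicate 3 or mdx/Runx1f/f replicate 2 or 3. Plasminogen activation fell to 1 or 0 of 8 in every such fit but the one without mdx/Runx1f/f replicate 1, and the 4 astacins, cathepsins and other proteases to 2 without mdx replicate 2.

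Markers of some other cell types of the muscle, but not of all, were also higher in the mdx/Runx1f/f libraries. In whole muscle, more cells of a type and more RNA per cell cannot be told apart. All 10 markers of fibro-adipogenic progenitors and fibroblasts were tested and 8 were higher, with a median log2 fold change of 1.12. Their summed level was 1311 to 1664 CPM in mdx and 2919 to 3558 in mdx/Runx1f/f, and Pdgfra, the receptor that defines these cells, was at 1.08 (SE 0.13, adjusted p = 0.0105, edgeR). Of 9 tested macrophage markers 2 were higher, with a median of 1.61. Their sum was 712, 419, 166 and 212 CPM in mdx and 950, 1873 and 688 in mdx/Runx1f/f. mdx replicate 1, highest in this sum among the mdx libraries, was also the mdx library with the most Mmp12 and Adam8.

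2 of the 8 neutrophil markers had enough reads to be tested and neither was called, at an unadjusted p under 0.05 either, with sums of 1.52 to 11.8 and 4.07 to 14.2 CPM. All 11 myofibre markers had negative log2 fold changes with a median of -0.98. None was called by edgeR, 4 were lower at an unadjusted p under 0.05 (12.4% of all tested genes), and DESeq2 called 3 lower (5.95%). Against 5.10% of all tested genes, 3 of 5 adipocyte markers, 3 of 6 Schwann cell markers and 1 of 8 endothelial markers were called higher. limma-voom called 1 of the 5 adipocyte markers (5.24% of all tested genes were higher in it). For tendon, smooth muscle, mast cells and satellite cells edgeR called none. At an unadjusted p under 0.05, 3 of 6, 4 of 8, 2 of 5 and 3 of 7 tested markers were higher. Of all tested genes 17.1% were higher at this threshold. The part of these cell types in the values of the protease and inhibitor genes was not tested.

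**Figure D5:**
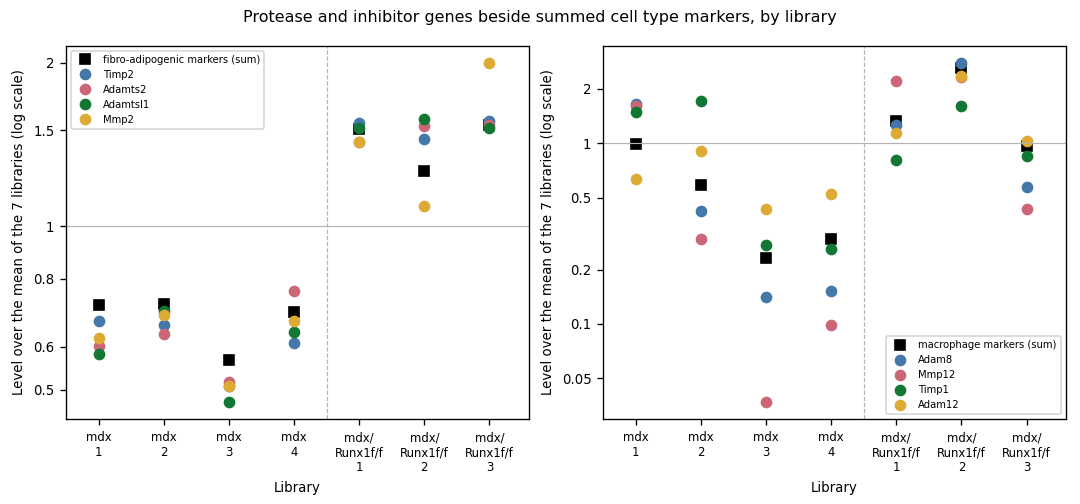
Summed fibroblast markers beside Timp2, Adamts2, Adamtsl1 and Mmp2 (left) and summed macrophage markers beside Adam8, Mmp12, Timp1 and Adam12 (right), each as its level over its own mean of the 7 libraries on a log axis. On the left all points separate the groups, and on the right the groups overlap except for Adam12, with the macrophage sum of mdx replicate 1, 712 CPM, above the 688 CPM of mdx/Runx1f/f replicate 3.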

How the data were processed

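RNA was measured in 7 whole-soleus libraries, grouped by title. The authors deposited raw read counts per gene symbol, made with TopHat2 2.0.10 and HTSeq on mm9, per the submitters' processing notes. They also deposited a normalised signal, the counts divided by 1 size factor per library, which is printed as the normalised read count. The deposited table also holds log2 fold changes with standard errors, the test score, and p-values with adjusted p-values from DESeq2 1.6.3, per the file headers and those notes. The annotation, strand setting and filters they used are not stated there or in the labels.

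From the counts, genes passing filterByExpr (10 reads, in terms of CPM at least 0.5669, in 3 libraries) were tested with edgeR 4.0.16 (R 4.3.3), quasi-likelihood, TMM scaling and group only, with Benjamini-Hochberg adjustment over all 14033 tested genes and a threshold of 0.05. CPM use TMM-adjusted library sizes. log2 fold changes carry edgeR's default prior count. Series differences add a pseudocount of 1. Levels per kb use merged exons of GENCODE M21, which is not on the authors' mm9. All pairs of libraries differed by more than counting error (lowest chi-square per degree of freedom 15.9). The test was tried on simulated counts first. Alternatives used DESeq2 1.42.0, limma-voom (limma 3.58.1), RLE factors, no filter, a replicate block, the animal series and subsets of libraries. In each subset the filter was applied anew, with its number of libraries set by the smaller group.

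The genes named were every called member, Timp1 to Timp4 and a fixed set of well-known members, the 6 uncalled members with the smallest p, the 3 with the largest change, and up to 3 genes with the smallest p per list. Adam1a, Adamts8, Adamts14, Adamtsl4, Adamtsl5 and Mmp15, the host genes of the TIMPs, and Lrp1, Thbs2 and Reck were added after their values were seen where the rule does not name them. The members and lists were chosen with earlier results of these data known.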

Additional observations from a re-analysis of the deposited data

Results flagged for a closer look

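Mmp12, the macrophage metalloelastase, had 96.1 normalised reads in mdx replicate 1, against 17.8, 2.21 and 5.92 in the other mdx libraries. Its gap to the nearest of them, divided by the range of the 4 libraries, was above the critical value of Dixon's test at the 95% level. 28 genes were examined in this way and 1 met the criterion, and chance alone gives about 1 in 20. The summed macrophage markers were also highest among the mdx libraries in this one, at 712 CPM against 166 to 419. Without it the log2 fold change of Mmp12 went from 1.71 to 3.51 (adjusted p = 0.0515, edgeR). The part of the macrophages in this value was not tested. The groups of 3 mdx/Runx1f/f libraries were not examined in this way.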

How the results depend on the processing

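No member was called lower under any alternative run. The count called higher, 10 of 49, was 18 with DESeq2 and 0 within animals 358 to 363. Calls within animals 373 to 375 are not counted, as the lone mdx/Runx1f/f library is taken to vary like the others. With limma-voom, RLE factors, no filter or the animal series as a covariate the count was 10 to 15. Leaving out 1 library gave 3 to 9. With the replicate number as a block 8 were called (1.71%): Mmp2, Mmp3, Mmp19, Mmp23, Adam33 and Adamts5 were not, and Mmp14, Adam12, Adam19 and Adamts4 were. The numbers share no stated source, the correlations of same-numbered libraries were -0.0069, 0.241 and 0.275, and none of the 3 mdx/Runx1f/f libraries correlated best with the mdx library of its own number. Of the lists beside the members, the MMP regulators (5) went to 8 with DESeq2 and 3 with the block. The plasminogen genes (2) went to 5 with DESeq2 and with the series covariate. With the block the count went from 14 to 7 for the 22 matrix proteins, from 8 to 2 for the 21 released proteins and from 4 to 1 for the 8 astacins, cathepsins and other proteases. These lists all went to 0 within animals 358 to 363, as did the whole set of tested genes. Under at least 1 alternative the log2 fold change changed sign in 11 of the 49 tested members, none of them called: Timp1, Timp4, Adam17, Adamts1, Adamtsl2, Mmp15, Adamtsl5, Mmp28, Adamts6, Adamts9 and Adamts17. Over all alternatives Mmp15 ran from -0.37 to 0.41 and Adamtsl5 from -0.15 to 0.09. Timp1 was at -0.38 within animals 358 to 363 and between -0.15 and 0.71 with 1 library left out. The leave-one-out ranges were -0.50 to 0.18 for Timp4, -0.00044 to 0.21 for Adam17, -0.020 to 0.64 for Adamts1 and -0.017 to 0.49 for Adamtsl2. Adamtsl2 was at -0.0024 with the series covariate and -0.66 within animals 373 to 375. The cause was not tested. At this depth 34 of the 83 members could not be tested.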
